A study of Rattus norvegicus with 21 samples.

Results

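The genes described here are those of the NRF2 pathway and of antioxidant defence, taken by gene symbol from a list of 39. A row of the count table was found for 37 of the 39, out of 17025 genes with a row, and all 37 were among the 12576 genes tested. Pgd had no row under that symbol, nor had Ftl1. A row named Ftl, whose gene identifier RefSeq gives to Ftl1, was kept outside the counts and is given by value only.

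RNA was measured in primary pancreatic islets of Sprague Dawley rats, clusters of endocrine cells that contain the insulin-producing beta cells. Each of 3 preparations pooled the islets of 8 rats, and each pool was divided over the culture conditions at about 1000 islet equivalents per sample. Control medium held 11 mM glucose, and glucolipotoxic (GLT) medium held 27 mM glucose with 300 µM palmitate. Compounds D and E were added at 300 nM to GLT medium only, for which the labels give neither structure nor target. Condition 1 was control medium for 3 h, condition 4 was GLT for 24 h, condition 5 was GLT with compound D for 3 h, and condition 6 was GLT with compound D for 24 h, each with 3 libraries (1 per preparation). Condition 8, GLT with compound E for 24 h, had 2 libraries (preparations 1 and 2), and condition 7, the same for 3 h, had 1 (preparation 2). No group received a compound in control medium.

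Conditions 2 and 3, with 3 libraries each, carry contradictory labels. The sample records call condition 2 the 24 h control and condition 3 the 3 h GLT group, whereas the deposited sample sheet calls condition 2 the 3 h GLT group and condition 3 the 24 h control. Comparisons without these 6 libraries are therefore given first, and conditions 2 and 3 are called by their numbers throughout. Summed levels of 4 sets of cell type markers did not overlap between them. The 5 red cell markers with a row summed to 7.29 to 10.2 CPM, the counts per M counts in genes after TMM scaling, in condition 1, 9.34 to 14.1 in condition 2 and 4.35 to 14.3 in condition 5. They summed to 0.704 to 0.865 CPM in condition 3, 0.565 to 0.734 in condition 4 and 1.18 to 1.86 in condition 6. The 7 endothelial markers summed to 182 to 206 CPM in condition 2 and to 66.6 to 100 CPM in condition 3. By the red cell and endothelial sums condition 2 lay with the 3 h groups and condition 3 with the 24 h groups, as on the sheet. The stellate and macrophage sums do not sort both conditions this way. The 8 stellate cell markers summed to 397 to 480 CPM in condition 2, beside 402 to 598 in condition 1 and 346 to 479 in condition 5. They summed to 481 to 889 CPM in condition 4 and 346 to 871 in condition 6. In condition 3 they summed to 1104 to 1519 CPM, above every library of all other groups (346 to 922 CPM). The 14 macrophage markers summed to 61.4 to 71.7 CPM in condition 2 and 75.6 to 102 CPM in condition 3.

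NRF2, encoded by Nfe2l2, is a transcription factor that is held at a low level by KEAP1, an adaptor that brings it to a ubiquitin ligase. Oxidants and electrophiles modify KEAP1, NRF2 then accumulates and, with small MAF proteins, binds antioxidant response elements near genes for glutathione synthesis, the thioredoxin system, quinone and haem metabolism, conjugation and NADPH supply. Beta cells are known for low catalase and glutathione peroxidase activity compared with liver.

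Several members carry letters of the antioxidant response element close to their start. The element core TGACNNNGC was searched on both strands of the window from 250 bases before to 50 bases after each gene start in RefSeq (GRCr8). It was found in 10 of the 33 members with a window (30.3%). Of all 13445 genes of the count table with a window, 13.9% held it. Hmox1, Gsr, Prdx6 and Fth1 had no window. Of the matches before a gene's first listed start, 5 are printed 5′ to 3′ on the gene's strand, chosen with the results known, because they show the letters next to Gclm, Gpx2 and Gstp1, which rose in a comparison described later, and next to Prdx1 and Sod2, whose levels differed most between libraries or preparations. Capitals mark the core, which reads in the opposite direction in all but Gstp1.
Gclm: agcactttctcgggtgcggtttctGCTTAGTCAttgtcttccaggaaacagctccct
Gpx2: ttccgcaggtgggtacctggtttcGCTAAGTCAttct
Prdx1: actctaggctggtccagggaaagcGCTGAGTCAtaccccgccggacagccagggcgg
Sod2: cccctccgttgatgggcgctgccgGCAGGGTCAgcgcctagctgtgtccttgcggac
Gstp1: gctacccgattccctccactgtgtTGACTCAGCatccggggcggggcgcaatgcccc
These stretches lie at chr2:213031939-213031995 (plus strand), chr6:101230034-101230070 (minus), chr5:135383747-135383803 (plus), chr1:50050171-50050227 (minus) and chr1:210769734-210769790 (minus). In Prdx1 and Gstp1 the core overlaps TGACTCA, the letters bound by AP-1 factors. Other matches were TGACAAAGC before a second start of Txnrd1, TGACTCTGC across the start of Prdx5, and 3 after the start: TGACGCCGC in Nfe2l2, TGACCAAGC in Prdx4 and TGACTTTGC in Gsta3. A match is a description of letters, not a measured binding site.

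Libraries held 22.3 to 40.2 M counts in genes (median 27.8 M), of which the insulin genes took 9.32% to 45.9%. The library of preparation 2, condition 3, stood apart with 23.4% of its counts in reads with several alignments, against 4.92% to 8.51% elsewhere. In it Prdx1 read 29.1 CPM, with 132 CPM as the lowest value in any other library. Ambiguous reads exceeded 1.5% in 7 libraries (1.66% to 2.32%), all in preparations 1 and 3. P-values measure the spread left after a term per condition and per preparation, estimated over all 21 libraries. In whole islets fewer cells of a type and less RNA per cell cannot be told apart.

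From 3 h to 24 h in GLT medium with compound D, 14 of the 37 members rose and none fell. Haem oxygenase 1 and the glutathione transferase row Gsta3 rose most. These 6 libraries have undisputed labels. Time in culture and length of exposure to GLT and compound D change together here and cannot be told apart. The members that rose cover haem breakdown (Hmox1, Blvrb), quinone reduction (Nqo1) and glutathione supply and use (Gclm, Gsr, Gpx2, Gsta3, Gsta4, Gstp1). They also cover hydrogen peroxide removal (Cat) and the pentose phosphate pathway (Taldo1), and include Keap1, the KEAP1 partner Sqstm1 and Osgin1. They were 37.8% of the members, and of all genes tested 6.11% passed in either direction and 3.07% rose. The median log2 fold change of the members was 0.64, beside 0.02 over all genes tested. Of the 23 members that did not pass, 17 had a fitted value above 0.

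Hmox1, the inducible haem oxygenase that turns haem into biliverdin, iron and carbon monoxide, read 83.99, 83.3 and 237 CPM in preparations 1, 2 and 3 at 3 h with compound D, and 970.1, 326 and 1126 CPM at 24 h. The lowest 24 h library lay above the highest 3 h library, and the preparations differed widely within each group. The fitted log2 change was 2.63 (SE 0.34, adjusted p = 0.000731), a 6.21-fold increase. Adjusted p-values here and below are from edgeR's quasi-likelihood test with Benjamini-Hochberg adjustment over all genes tested. Biliverdin reductase B (Blvrb) read 2.27, 2.79 and 2.14 CPM at 3 h and 3.57, 6.31 and 6.06 CPM at 24 h, without overlap. Its log2 change was 1.12 (SE 0.29, adjusted p = 0.0371). Macrophages are another known source of Hmox1, and their 14 markers with a row summed to 48.3 to 66.2 CPM at 3 h and 55.5 to 92.0 CPM at 24 h. None of the 13 macrophage markers tested passed here (median log2 0.43), and Marco was at or near 0. The endothelial markers summed to 150 to 190 CPM at 3 h and to 24.6 to 103 CPM at 24 h, and the red cell markers to 4.35 to 14.3 CPM and 1.18 to 1.86 CPM. The part of these cells in the members' changes was not tested.

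The row Gsta3, an alpha-class glutathione transferase that conjugates glutathione to electrophiles, read 0.677, 0.835 and 1.28 CPM at 3 h and 4.29, 5.92 and 12.2 CPM at 24 h with compound D. Every 24 h library exceeded every 3 h library, from a base of 20 to 36 counts. The log2 change was 2.93 (SE 0.41, adjusted p = 0.00106). Alpha-class transferases are near copies of each other, and the identifier of this row belongs to Gsta1 in RefSeq, so which copy the reads came from is uncertain. A second alpha-class row, Gsta5, held 1 to 3 counts at 3 h and 13 to 163 at 24 h.

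NAD(P)H quinone dehydrogenase 1 (Nqo1), a textbook NRF2 target, read 32.7, 65.4 and 50.7 CPM at 3 h and 69.2, 139 and 207 CPM at 24 h with compound D. The groups did not overlap, although preparation 3 supplied the highest 24 h value and preparation 2 the highest 3 h value. The log2 change was 1.35 (SE 0.33, adjusted p = 0.0274). Osgin1, an oxidative stress-induced growth inhibitor, read 2.03, 2.18 and 5.98 CPM at 3 h and 7.71, 8.03 and 12.8 CPM at 24 h. Its log2 change was 1.61 (SE 0.24, adjusted p = 0.00162), with the lowest 24 h library above the highest 3 h library.

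In glutathione metabolism, glutathione reductase (Gsr), which regenerates reduced glutathione, read 52.8, 68.9 and 55.3 CPM at 3 h and 92.8, 121 and 131 CPM at 24 h and changed by 0.97 (SE 0.18, adjusted p = 0.00682) on the log2 scale. The modifier subunit of glutamate-cysteine ligase (Gclm) read 42.1, 47.01 and 46.1 CPM at 3 h and 71.3, 64.5 and 88.8 CPM at 24 h, a log2 change of 0.73 (SE 0.15, adjusted p = 0.0121). The catalytic subunit of the same enzyme (Gclc) read 30.99, 25.05 and 52.3 CPM at 3 h and 35.2, 19.95 and 47.8 CPM at 24 h and did not pass, at -0.08 (SE 0.16, adjusted p = 0.815). So the modifier subunit passed and the catalytic subunit did not. The difference between the subunits was not tested. Glutathione peroxidase 2 (Gpx2) changed by 1.66 (SE 0.37, adjusted p = 0.0175) on the log2 scale, from 3.73, 6.78 and 8.83 CPM to 11.9, 21.7 and 26.8 CPM. Gsta4 and the pi-class transferase Gstp1 changed by 1.39 and 1.30 (adjusted p = 0.0434 and 0.0472), with groups that overlapped in both.

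Catalase (Cat), which breaks down hydrogen peroxide, read 81.2, 61.2 and 71.2 CPM at 3 h and 165, 97.5 and 249 CPM at 24 h with compound D, a log2 change of 1.19 (SE 0.25, adjusted p = 0.0135). Transaldolase (Taldo1) changed by 0.79 (SE 0.22, adjusted p = 0.0458). Keap1 itself read 30.04, 36.2 and 33.2 CPM at 3 h and 44.7, 60.5 and 45.02 CPM at 24 h, a log2 change of 0.59 (SE 0.15, adjusted p = 0.0305), without overlap. Sqstm1, which encodes p62, a cargo receptor of autophagy that binds KEAP1, changed by 0.72 (SE 0.17, adjusted p = 0.0203), from 907, 964 and 1194 CPM to 1623, 1614 and 1779 CPM. The transcript of NRF2 did not pass: Nfe2l2 read 89.5, 84.97 and 98.7 CPM at 3 h and 82.7, 78.1 and 107 CPM at 24 h, a log2 value of -0.03 (SE 0.12, adjusted p = 0.894). Neither did sulfiredoxin (Srxn1), which repairs overoxidised peroxiredoxins, at 0.47 (SE 0.23, adjusted p = 0.241), or thioredoxin reductase 1 (Txnrd1), at 0.27 (SE 0.14, adjusted p = 0.266). None of the 6 peroxiredoxins or of Sod1 and Sod2 passed. The row Ftl, ferritin light chain, which stores iron, changed by 1.79 (SE 0.45, adjusted p = 0.0283). It was at 364, 796 and 375 CPM at 3 h and 1508, 2233 and 1566 CPM at 24 h.

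The number of members that passed was 0 without preparation 1, 14 without preparation 2, 2 without preparation 3, 5 with no replicate block and 4 with scaling by library size only. The calls over all genes moved too, from 769 to 9, 798, 70, 382 and 240 in the same fits.

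**Figure D1:**
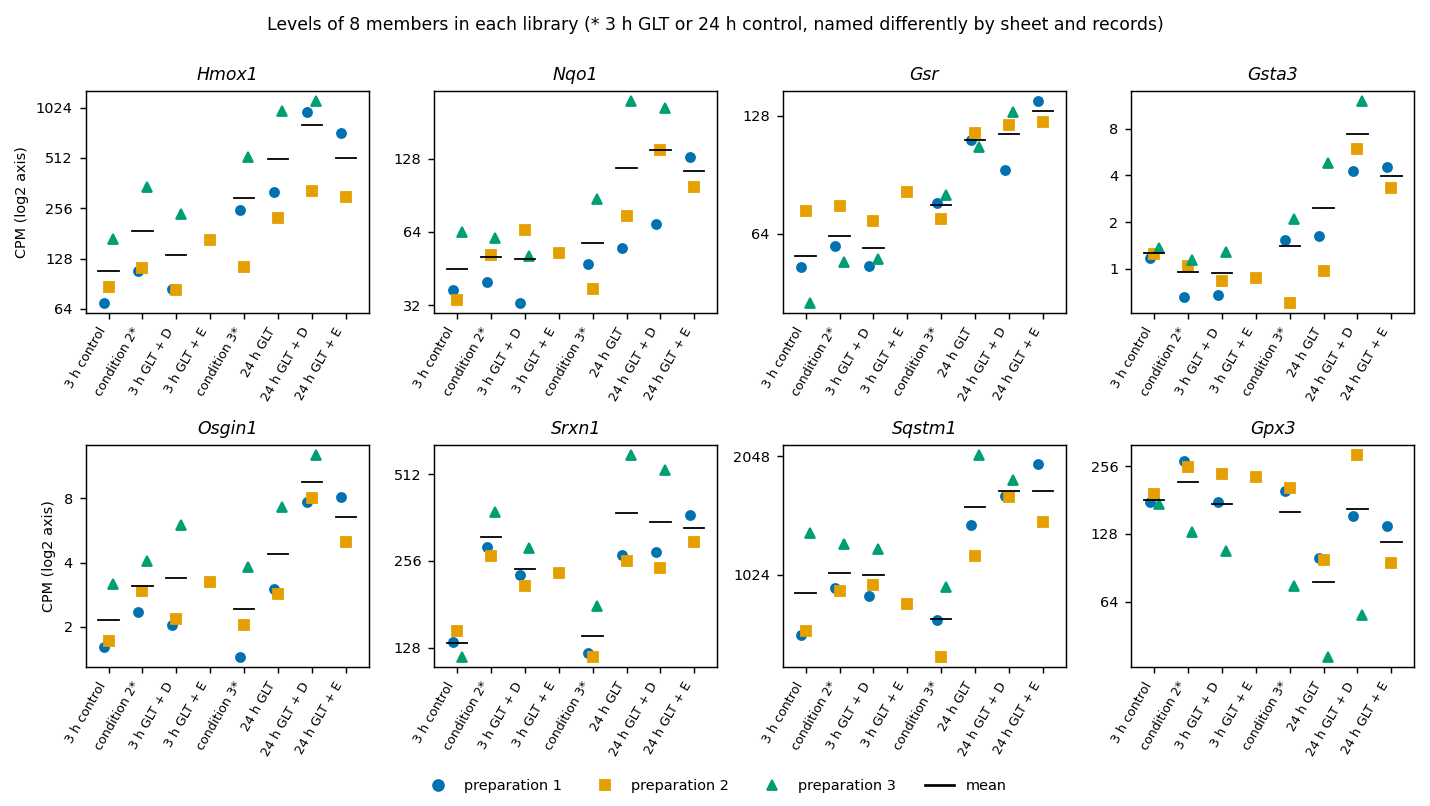
Levels of 8 members in CPM (y axes, log scale) in the 21 libraries, by culture group on the x axis, with 1 point per library, the preparation shown by marker and a line at each group's mean. Hmox1 in 24 h GLT with compound D (condition 6) lies between 326 and 1126 CPM, above all 3 libraries of 3 h GLT with compound D (condition 5), and the points of preparation 3 are the highest of each condition with 3 libraries for this gene.

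From the 3 h control to 24 h GLT without a compound, 12 members rose and 1 fell, again in libraries with undisputed labels. Time and medium change together in this comparison and cannot be told apart. Hmox1 and sulfiredoxin rose most among the core genes, and the plasma glutathione peroxidase Gpx3 fell. The 13 members that passed were 35.1% of all members, beside 8.26% of all genes in either direction and 4.14% that rose. The members' median log2 change was 0.58 and that of all genes was -0.02.

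Hmox1 read 69.7, 86.1 and 167 CPM in the 3 h control and 320.1, 222 and 975 CPM after 24 h of GLT. All 24 h GLT libraries exceeded all 3 h control libraries, and the log2 change was 2.00 (SE 0.33, adjusted p = 0.00273). The macrophage markers summed to 48.0 to 91.8 CPM in the 3 h control and 50.6 to 63.4 CPM after 24 h of GLT (0 of 13 tested passed), the endothelial markers to 171 to 197 CPM and 31.5 to 85.1 CPM, and the red cell markers to 7.29 to 10.2 CPM and 0.565 to 0.734 CPM. Their part was not tested. Srxn1 read 134, 146 and 119 CPM and 269, 257 and 598 CPM, with a gap between the groups and a log2 change of 1.36 (SE 0.23, adjusted p = 0.00296). Txnrd1, which keeps thioredoxin reduced, changed by 0.64 (SE 0.14, adjusted p = 0.0121), from 107, 126 and 197 CPM to 194, 163 and 317 CPM, and its groups overlapped, with preparation 3 high in both. The transcript of NRF2 rose here: Nfe2l2 read 59.4, 67.99 and 71.6 CPM and then 96.7, 83.96 and 98.5 CPM, a log2 change of 0.49 (SE 0.12, adjusted p = 0.024). Keap1 did not pass, at -0.21 (SE 0.15, adjusted p = 0.438).

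Gpx3, a secreted glutathione peroxidase, read 178, 193 and 174 CPM in the 3 h control and 100.3, 98.6 and 36.5 CPM after 24 h of GLT. It fell by 1.42 on the log2 scale (SE 0.32, adjusted p = 0.0143), without overlap, and was the only member that fell in this comparison. Gsr read 52.7, 73.2 and 42.7 CPM and 111, 115 and 106 CPM, a log2 change of 1.00 (SE 0.18, adjusted p = 0.00436). Gpx2 and Gsta4 changed by 1.61 and 1.31 (adjusted p = 0.016 and 0.0432). The subunits Gclc and Gclm did not pass, at 0.47 (SE 0.16) and 0.31 (SE 0.15) with adjusted p = 0.0853 and 0.234. Sqstm1, Osgin1, Cat and Nqo1 changed by 0.73, 0.96, 0.94 and 1.23 (adjusted p from 0.0153 to 0.0345). Ferritin heavy chain (Fth1) changed by 1.26 (SE 0.33, adjusted p = 0.0306), from 1393, 2439 and 1991 CPM to 4338, 5359 and 4178 CPM. Ferritin genes have processed copies in the genome that can share reads, so the values of Fth1 and Ftl are uncertain. Ftl changed by 1.55 (SE 0.44, adjusted p = 0.0423). The number of members that passed was 0 without preparation 1, 18 without preparation 2, 1 without preparation 3, 2 with no replicate block and 7 with scaling by library size only, while over all genes 1039 calls became 13, 1513, 161, 600 and 509.

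The 3 h to 24 h comparison with compound D and the comparison of 24 h GLT with the 3 h control share no library. Both use the same preparations and joint fit, and both set 24 h libraries against 3 h libraries. Cat, Gpx2, Gsr, Gsta4, Hmox1, Nqo1, Osgin1 and Sqstm1 rose in both, 57.1% of the 14 members called in the first and 61.5% of the 13 called in the second. Gsta3, Gclm, Keap1, Blvrb, Taldo1 and Gstp1 passed in the first alone, and Srxn1, Txnrd1, Nfe2l2, Fth1 and Gpx3 in the second alone. The differences between these effects were not tested, and the overlap was not counted over all genes.

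**Figure D2:**
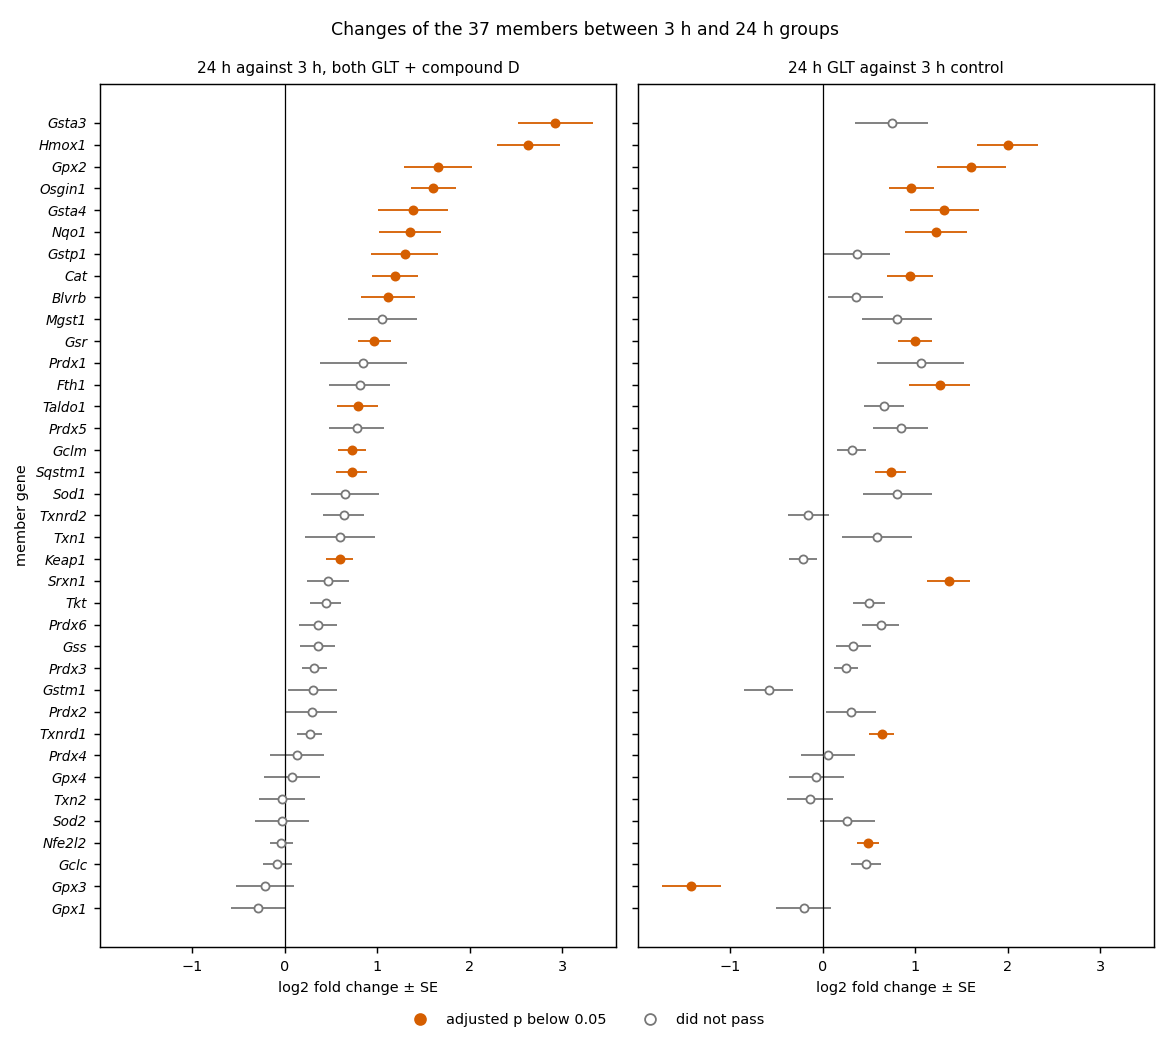
Fitted log2 fold changes of the 37 members (x axis) with SE bars, from 3 h to 24 h with compound D and from the 3 h control to 24 h GLT, with filled points for members that passed. Hmox1 lies at 2.63 and 2.00, and Gpx3 is the only filled point below 0.

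Added to GLT for 24 h, compound D was accompanied by higher Osgin1 and Gsta3, and no other member passed. Those 2 of 37 members (5.41%) compare with 4.08% of all genes in either direction and 1.96% that were higher, and the members' median log2 difference was 0.05. At an unadjusted p under 0.05 by edgeR there were 12 members and 2118 genes, in either direction. Osgin1 read 3.02, 2.86 and 7.25 CPM in 24 h GLT and 7.71, 8.03 and 12.8 CPM in 24 h GLT with compound D, so that the lowest treated library lay above the highest untreated one. The log2 difference was 1.21 (SE 0.24, adjusted p = 0.0117), a 2.32-fold increase. Gsta3 read 1.62, 0.965 and 4.80 CPM and 4.29, 5.92 and 12.2 CPM, higher with compound D within each preparation, with overlapping groups, since the untreated library of preparation 3 lay above the treated library of preparation 1. Its log2 difference was 1.69 (SE 0.38, adjusted p = 0.0229). Macrophage markers summed to 50.6 to 63.4 CPM without and 55.5 to 92.0 CPM with the compound, with 0 of 13 past the threshold, and red cell markers to 0.565 to 0.734 CPM and 1.18 to 1.86 CPM. Their part was not tested.

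The core genes did not pass with compound D at 24 h. Keap1 read 31.7, 38.04 and 36.6 CPM without and 44.7, 60.5 and 45.02 CPM with the compound, which did not overlap, at a log2 value of 0.50 (SE 0.15, adjusted p = 0.0816). It had the smallest p-value after Osgin1 and Gsta3. Hmox1 was at 0.84 (SE 0.32, adjusted p = 0.182), and within preparations 1, 2 and 3 its log2 differences were 1.60, 0.55 and 0.21. Gclm was at 0.47 (SE 0.15, adjusted p = 0.107) and Gclc at -0.36 (SE 0.16, adjusted p = 0.262), so the fitted values of the ligase subunits lay on opposite sides of 0. Nqo1 was at 0.34 (SE 0.33), Nfe2l2 at -0.07 (SE 0.12), Srxn1 at -0.09 (SE 0.23) and Txnrd1 at -0.03 (SE 0.14), with adjusted p-values from 0.677 to 0.96. The 95% interval of the Txnrd1 difference ran from -0.32 to 0.27. The 2 calls rest on all 3 preparations: leaving out any one of them gave 0, as did the fit with no replicate block, library size scaling gave 1, the fit without the preparation 1 library of compound E 3 and DESeq2 5. Over all genes the calls fell from 513 to 0, 234 and 87 without preparations 1, 2 and 3.

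With compound E at 24 h no member passed by edgeR, nor did any of the genes tested (0%). The members' median log2 difference was 0.48, beside 0.04 over all genes, with 34 fitted values above 0 and 3 below. Without the compound E library of preparation 1 the members' median was 0.055. At an unadjusted p under 0.05 there were 8 members and 813 genes, and DESeq2 called 0 members. Osgin1 had the smallest p-value, with 8.12 and 4.99 CPM in preparations 1 and 2 against 3.02, 2.86 and 7.25 CPM in the 24 h GLT libraries. That is a log2 value of 1.06 (SE 0.27, adjusted p = 0.566). Gstp1 followed, with 101 and 62.8 CPM against 26.00, 24.4 and 68.7 CPM and a value of 1.34 (SE 0.41), and then Gsta3 at 1.20 (SE 0.43), both with adjusted p = 0.566. With the compound E library of preparation 1 dropped, the log2 values were 0.57 for Osgin1, 0.73 for Gstp1, 0.98 for Gsta3 and 0.24 for Hmox1. Among the core genes Hmox1 was at 0.68 (SE 0.36), Nqo1 at 0.50 (SE 0.38), Keap1 at 0.34 (SE 0.17), Gclm at 0.16 (SE 0.17), Srxn1 at 0.11 (SE 0.26), Txnrd1 at 0.09 (SE 0.16), Gclc at 0.03 (SE 0.18) and Nfe2l2 at -0.19 (SE 0.14). Their adjusted p-values lay between 0.566 and 0.954. Scaling by library size moved the median of all genes to -0.36 here, and with it the small values of Keap1, Gclc, Gclm, Srxn1 and Txnrd1 to below 0. Without preparation 2, when 1 library of compound E was left and was assumed to vary like the other groups, 14 members and 3241 of all genes passed. Marker sums are given for preparations 1 and 2, in that order, since preparation 3 had no compound E library. The 8 beta cell markers, mostly insulin counts, summed to 232400 and 274200 CPM in 24 h GLT and 633100 and 424100 CPM with compound E. Among them Ins1, Ins2 and Iapp were higher with compound E in both preparations, and Slc2a2 and Slc30a8 lower in both. Pdx1, Nkx6-1 and Ucn3 were higher in preparation 1 alone. The 5 alpha cell markers summed to 21120 and 22390 CPM without and 28550 and 23790 CPM with the compound. For the endothelial markers the sums were 74.3 and 85.1 CPM, and 90.1 and 89.8 CPM. The part of these cells was not tested.

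Compounds D and E were given at the same dose and time, which allows 1 direct comparison at 24 h. No member differed by edgeR, while 3.01% of all genes did, 8 members and 2313 of all genes were at an unadjusted p under 0.05, and DESeq2 called 0 members. Fth1 had the smallest p-value, with 8064 and 5996 CPM for compound E and 2008, 5179 and 2794 CPM for compound D, at a log2 difference (E minus D) of 1.10 (SE 0.37, adjusted p = 0.128). Prdx2 and Prdx5, which reduce peroxides in the cytosol and in mitochondria and peroxisomes, were at 0.89 (SE 0.31, adjusted p = 0.136) and 0.87 (SE 0.33, adjusted p = 0.179). In both peroxiredoxins the compound E library of preparation 1 was the highest of all, at 389 and 168 CPM. Without that library the log2 differences were 0.58 for Fth1, 0.20 for Prdx2 and 0.27 for Prdx5. Within preparation 2 alone they were 0.21, -0.07 and -0.13. For Osgin1 and Gsta3, the members called with compound D, the 95% intervals of the difference ran from -0.73 to 0.41 and from -1.40 to 0.42, so both intervals included 0 and differences in either direction. For Hmox1 the interval ran from -0.94 to 0.60. Without preparation 2, again with 1 compound E library assumed to vary like the other groups, 14 members and 4543 of all genes differed.

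**Figure D3:**
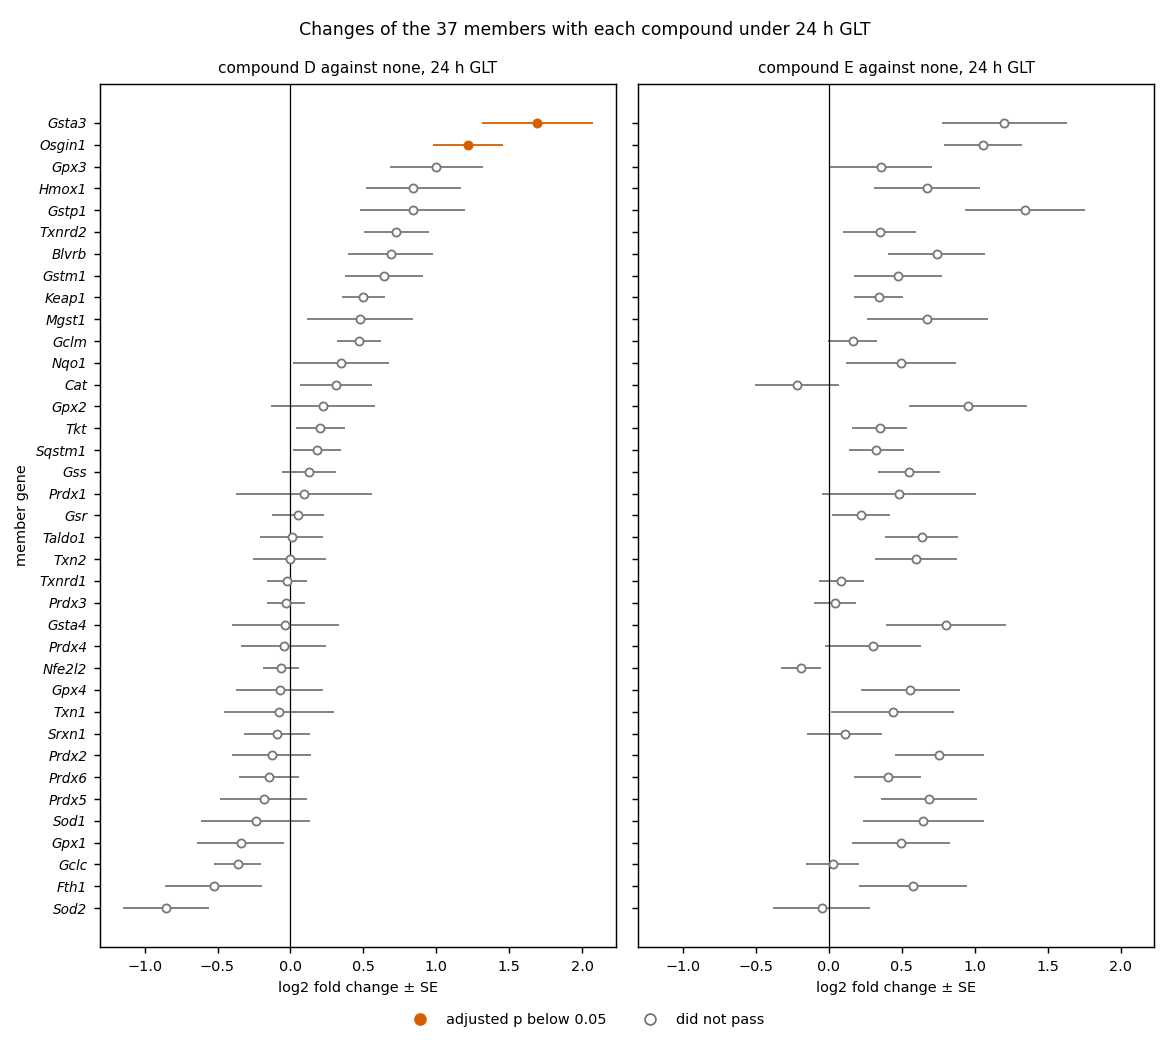
Fitted log2 differences of the 37 members (x axis) with SE bars, for 24 h GLT with compound D or compound E against 24 h GLT, with filled points for members that passed. Osgin1 (1.21) and Gsta3 (1.69) are the filled points for compound D, and none is filled for compound E.

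At 3 h, GLT with compound D against the 3 h control gave no member past the threshold by edgeR. In all, 0.103% of genes passed, 4 members were at an unadjusted p under 0.05, and DESeq2 called 1. Medium and compound change together here and cannot be told apart. The smallest p-values belonged to Nfe2l2 (log2 0.46, SE 0.12, adjusted p = 0.251), Srxn1 (log2 0.80, SE 0.23, adjusted p = 0.299) and Txnrd1 (log2 0.34, SE 0.14, adjusted p = 0.653). Srxn1 read 134, 146 and 119 CPM in the control and 229, 209.9 and 284 CPM with GLT and compound D, without overlap. Hmox1 read 69.7, 86.1 and 167 CPM and 83.99, 83.3 and 237 CPM, which overlapped. The single library of 3 h GLT with compound E came from preparation 2 and allows no test. In it Hmox1 read 165 CPM, with 83.3 CPM for compound D and 86.1 CPM for the control of the same preparation. Srxn1 read 232, 209.9 and 146 CPM in the same 3 libraries, and Nqo1 read 52.3, 65.4 and 33.5 CPM. Nfe2l2 read 81.4, 84.97 and 67.99 CPM.

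The remaining comparisons use conditions 2 and 3, so each has a different meaning under each set of labels. Condition 4 against condition 3 is GLT against control at 24 h by the sheet, and 24 h against 3 h of GLT by the records. Here 5 members were higher and none lower, beside 5.97% of all genes in either direction and 3.31% that were higher. The 5 were Srxn1, Txnrd1, the peroxiredoxin Prdx6, the KEAP1 partner Sqstm1 and Nfe2l2. Srxn1 read 122, 119 and 179 CPM in condition 3 and 269, 257 and 598 CPM in condition 4, a log2 difference of 1.36 (SE 0.23, adjusted p = 0.00428) without overlap. Txnrd1 was at 0.78 (SE 0.14, adjusted p = 0.00578), Sqstm1 at 0.92 (SE 0.17, adjusted p = 0.00656), Prdx6 at 0.93 (SE 0.20, adjusted p = 0.018) and Nfe2l2 at 0.49 (SE 0.12, adjusted p = 0.03). Hmox1 did not pass (log2 0.74, SE 0.32, adjusted p = 0.195), nor did Nqo1 (log2 0.89, SE 0.33, adjusted p = 0.127), Gclc (log2 0.56, SE 0.16, adjusted p = 0.0544), Gclm (log2 0.01, SE 0.15, adjusted p = 0.983) or Keap1 (log2 -0.21, SE 0.15, adjusted p = 0.466). The macrophage markers summed to 75.6 to 102 CPM in condition 3 and 50.6 to 63.4 CPM in condition 4, with 0 of 13 past the threshold, and the stellate markers to 1104 to 1519 CPM and 481 to 889 CPM. Their part was not tested. The number of members that passed was 0, 8 and 1 without preparations 1, 2 and 3, and 2 with no replicate block. Dropping the preparation 1 library of compound E gave 11, as did a term for libraries of high ambiguous reads, and DESeq2 gave 12. Over all genes the 751 calls became 15, 455 and 90 without preparations 1, 2 and 3. Without the condition 3 library of preparation 2 that stood apart, 4 members and 219 of all genes passed. Prdx6 read 19.1 CPM in that library, with 24.6 CPM as the lowest value in any other.

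Condition 4 against condition 2 is GLT against control at 24 h by the records, and 24 h against 3 h of GLT by the sheet. Here 5 members were higher and Gpx3 was lower, beside 8.52% of all genes in either direction and 3.63% that were higher. The endothelial markers summed to 182 to 206 CPM in condition 2 and 31.5 to 85.1 CPM in condition 4, and the red cell markers to 9.34 to 14.1 CPM and 0.565 to 0.734 CPM, without overlap. Their part was not tested. Gpx3 read 269.6, 253 and 130.2 CPM in condition 2 and 100.3, 98.6 and 36.5 CPM in condition 4, a log2 difference of -1.53 (SE 0.32, adjusted p = 0.0103) without overlap. Hmox1 read 108, 112 and 341 CPM and 320.1, 222 and 975 CPM, a log2 difference of 1.34 (SE 0.33, adjusted p = 0.0215). These groups overlapped, since preparation 3 of condition 2 lay above preparations 1 and 2 of condition 4. Gsr was at 0.82 (SE 0.18, adjusted p = 0.0133), Cat at 1.14 (SE 0.25, adjusted p = 0.0143), Gsta4 at 1.49 (SE 0.38, adjusted p = 0.027) and Taldo1 at 0.78 (SE 0.22, adjusted p = 0.0416). These 5 higher members all rose also from 3 h to 24 h with compound D. That comparison shares no library with this one but uses the same preparations and joint fit. The 5 are 83.3% of the 6 called here and 35.7% of the 14 called there. Of the 5 members called against condition 3, 1 (Sqstm1) also rose with compound D from 3 h to 24 h, 20% of the 5 and 7.14% of the 14. These overlaps were not counted over all genes. Srxn1 read 285, 266 and 379 CPM in condition 2 and was at 0.20 (SE 0.23, adjusted p = 0.662), so it passed against condition 3 and not against condition 2. The core genes other than Hmox1 did not pass: Nqo1 was at 1.01 (SE 0.33), Gclm at 0.43 (SE 0.15), Txnrd1 at 0.33 (SE 0.14), Nfe2l2 at 0.16 (SE 0.12), Keap1 at 0.17 (SE 0.15) and Gclc at 0.04 (SE 0.16). The number of members that passed was 0, 13 and 0 without preparations 1, 2 and 3, and 3 with no replicate block. It was 11 with library size scaling, 10 by DESeq2, 10 after dropping the preparation 1 library of compound E, and 23 when these 2 conditions alone were fitted. Over all genes the 1072 calls became 21, 1222 and 83 without preparations 1, 2 and 3, and 3263 with these conditions alone.

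**Figure D4:**
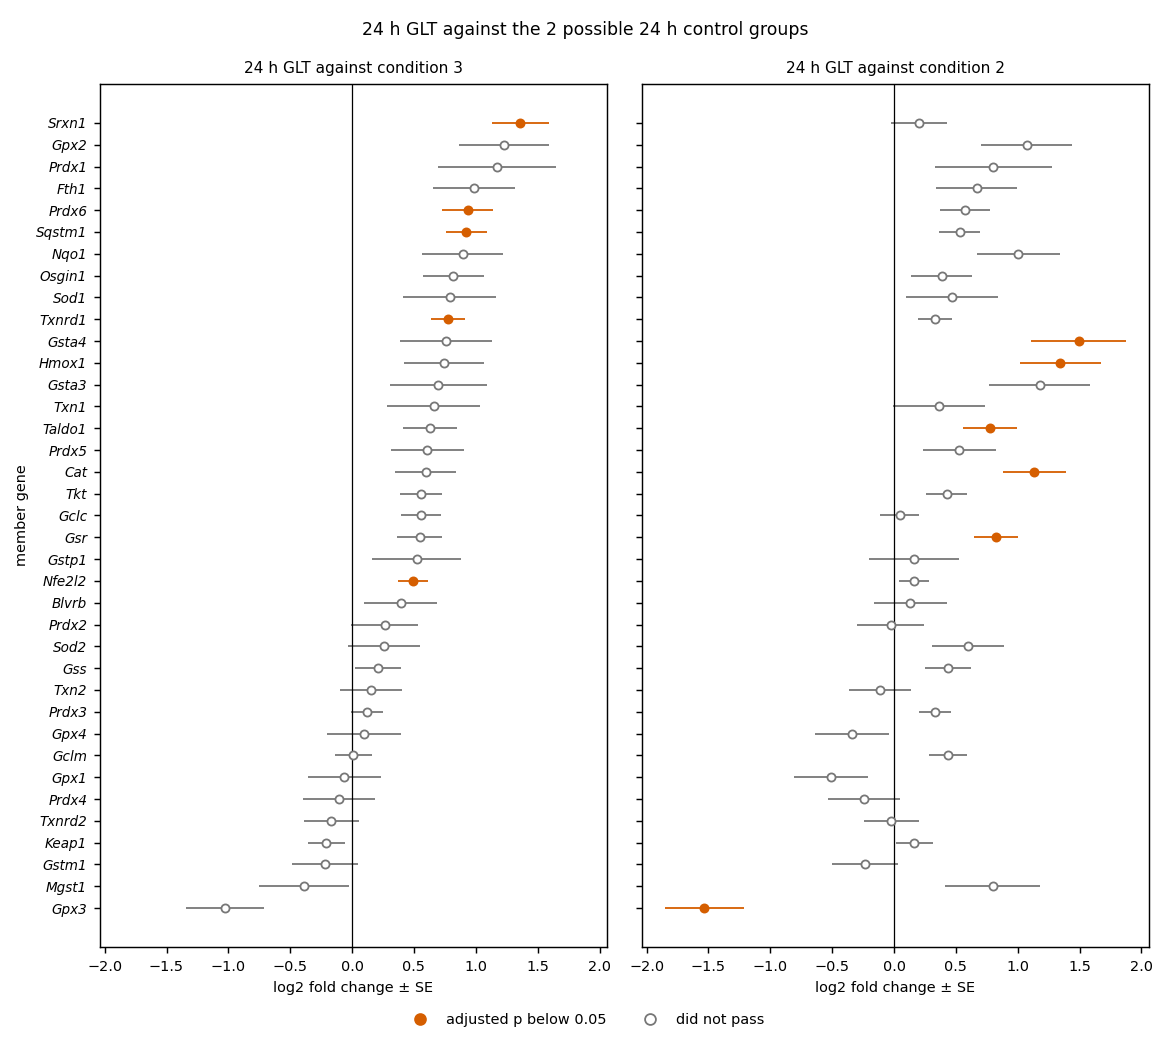
Fitted log2 differences of the 37 members (x axis) with SE bars for condition 4 against condition 3 and against condition 2, the comparisons that stand for 24 h GLT against 24 h control by the sheet and by the records, with filled points for members that passed. Srxn1 is filled only against condition 3 (1.36) and Hmox1 and Gpx3 only against condition 2 (1.34 and -1.53).

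Condition 2 against the 3 h control is 3 h of GLT by the sheet and a 24 h control against a 3 h control by the records. Srxn1 alone passed, at 134, 146 and 119 CPM in condition 1 and 285, 266 and 379 CPM in condition 2, where the lowest library of condition 2 lay above the highest of condition 1. The log2 difference was 1.16 (SE 0.23, adjusted p = 0.0128). Of all genes tested 2.31% passed. Nqo1 was at 0.22 (SE 0.33) and Hmox1 at 0.65 (SE 0.32), neither past the threshold. Srxn1 no longer passed without preparation 1, without preparation 3, with library size scaling or with no replicate block. Condition 3 against the 3 h control gave no member by edgeR, 3 at an unadjusted p under 0.05 and 1 by DESeq2, with 0.692% of all genes past the threshold. Hmox1 had the smallest p-value (log2 1.25, SE 0.33, adjusted p = 0.0906), followed by Mgst1 (log2 1.20, SE 0.38, adjusted p = 0.172) and Gsr (log2 0.45, SE 0.18, adjusted p = 0.292). For Hmox1 the levels in condition 3 were 250.05, 114 and 516 CPM, which overlapped with condition 1. The stellate markers summed to 402 to 598 CPM in condition 1 and 1104 to 1519 CPM in condition 3, and their part was not tested.

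Condition 6 against condition 3 is 24 h GLT with compound D against 24 h control by the sheet, and against 3 h GLT by the records. It gave 6 higher members and none lower, 16.2% of the members beside 0.716% of all genes in either direction and 0.461% that were higher. The stellate markers summed to 1104 to 1519 CPM in condition 3 and 346 to 871 CPM in condition 6, without overlap, and their part was not tested. Osgin1 read 1.45, 2.04 and 3.79 CPM in condition 3 and 7.71, 8.03 and 12.8 CPM in condition 6, a log2 difference of 2.03 (SE 0.25, adjusted p = 0.0037) without overlap. Gsta3 was at 2.39 (SE 0.39, adjusted p = 0.0116), Hmox1 at 1.58 (SE 0.33, adjusted p = 0.0396), Srxn1 at 1.27 (SE 0.23, adjusted p = 0.0197), Sqstm1 at 1.10 (SE 0.17, adjusted p = 0.00638) and Txnrd1 at 0.75 (SE 0.14, adjusted p = 0.0227). The number of members that passed was 2 without the condition 3 library of preparation 2 that stood apart, 0, 2 and 0 without preparations 1, 2 and 3, 0 with no replicate block and 0 when these conditions alone were fitted, 3 with library size scaling, 9 after dropping the preparation 1 library of compound E and 14 by DESeq2. Over all genes the 90 calls became 38 without the library that stood apart and 0, 36 and 4 without preparations 1, 2 and 3. Condition 5 against condition 2 is compound D against none in 3 h GLT by the sheet. By the records it is 3 h GLT with compound D against 24 h control. It gave 0 members by edgeR, 0 at an unadjusted p under 0.05 and 0 by DESeq2, beside 0.493% of all genes. The smallest p-values were those of Fth1 (log2 -0.67, SE 0.33, adjusted p = 0.778), Gpx1 (log2 -0.56, SE 0.30, adjusted p = 0.827) and Gpx4 (log2 -0.50, SE 0.30, adjusted p = 0.891).

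The difference between the 24 h and the 3 h effect of GLT is the same contrast under both sets of labels. No member passed it by edgeR, 6 were at an unadjusted p under 0.05, DESeq2 called 0, and 0.0716% of all genes passed. Prdx6 (log2 0.88, SE 0.29, adjusted p = 0.376), Sqstm1 (log2 0.72, SE 0.24, adjusted p = 0.381) and Gpx3 (log2 -1.14, SE 0.44, adjusted p = 0.478) had the smallest p-values.

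Other genes of the pathway were read from 3 further lists. Of 37 tested genes linked to NRF2 in other tissues, 8 rose and none fell from 3 h to 24 h with compound D, with a median log2 change of 0.40, where 6.11% of all genes passed and 3.07% rose. Pirin (Pir) read 10.8, 13.8 and 14.8 CPM and 39.1, 45.5 and 59.01 CPM and changed by 1.86 (SE 0.17, adjusted p = 8.22e-05), and the oxidoreductase gene Htatip2 changed by 1.36 (SE 0.19, adjusted p = 0.00105). Other risers, with their log2 changes, were Ugt1a6 (1.66), which glucuronidates, Ephx1 (1.04), an epoxide hydrolase, the exporter Abcc3 (0.72), Fech (0.59), the last enzyme of haem synthesis, and malic enzyme Me1 (0.56). From the 3 h control to 24 h GLT 6 of the 37 rose and none fell (median log2 change 0.19), where 8.26% of all genes passed and 4.14% rose. With their log2 changes, they included Htatip2 (1.41), Pir (1.03), Ugt1a6 (1.27), the transferrin receptor Tfrc (1.58) and the cystine carrier Slc7a11 (1.26).

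With compound D added to 24 h GLT, 4 of these 37 were higher and none lower, where 4.08% of all genes passed and 1.96% were higher. Me1 read 226, 232 and 204 CPM without and 325, 395 and 371 CPM with the compound, a difference of 0.72 (SE 0.12, adjusted p = 0.00612), and 204 and 224 CPM in the 2 compound E libraries. Pir (log2 difference 0.80), the glycine carrier Slc6a9 (0.69) and the retinal dehydrogenase Aldh1a1 (2.32) were the others. Aldh1a1 started from a low level, at 0.490, 0.579 and 0.747 CPM without and 2.95, 3.63 and 2.60 CPM with the compound. Between the compounds 2 of the 37 differed, where 3.01% of all genes did. They were Me1 (E minus D, log2 -0.77, SE 0.14, adjusted p = 0.0111) and Slc6a9 (log2 -0.96, SE 0.21, adjusted p = 0.021), both lower with compound E. With compound E against 24 h GLT none of the 37 passed. Against condition 3, condition 4 had 6 higher and 0 lower, where 5.97% of all genes passed and 3.31% were higher. Slc7a11 had the smallest p-value there (log2 2.07, SE 0.35, adjusted p = 0.00414). Against condition 2, condition 4 had 7 higher and 1 lower, where 8.52% of all genes passed and 3.63% were higher. Pir had the smallest p-value there (log2 1.28, SE 0.17, adjusted p = 0.00054). Trib3, a stress-linked pseudokinase, had a log2 difference of 1.08 against condition 3 and -0.96 against condition 2, so its call turned in sign with the control used.

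Of the 14 tested partners and repressors of NRF2, none passed in either comparison with compound D or E at 24 h or from 3 h to 24 h with compound D. Between the 3 h control and 24 h GLT the small MAF gene Mafk (log2 change 0.73) and Palb2 (1.03) rose and Trim16 fell by 0.87 on the log2 scale. Palb2 was low in both groups, at 0.565, 0.439 and 0.616 CPM and then 1.06, 1.20 and 1.07 CPM. Of all genes, 8.26% passed in that comparison. Mafk was also higher in condition 2 than in condition 1 (log2 0.87, SE 0.19, adjusted p = 0.0262), as was Srxn1.

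Of 45 other tested redox genes, thioredoxin-interacting protein (Txnip), a glucose-responsive inhibitor of thioredoxin, was the only one that passed at 3 h with compound D against the control. Txnip read 33.9, 50.3 and 34.4 CPM in the 3 h control and 1117, 922 and 265 CPM in 3 h GLT with compound D, a log2 difference of 4.12 (SE 0.38, adjusted p = 0.000228). It read 76.5, 90.9 and 46.9 CPM in 24 h GLT, 235, 468 and 194 CPM with compound D and 44.9 and 56.6 CPM with compound E, and 82.9 CPM in the single library of 3 h GLT with compound E. The log2 difference was 2.04 (SE 0.34, adjusted p = 0.00498) for compound D against none, and -2.79 (SE 0.42, adjusted p = 0.0031) for compound E minus compound D. Glutaredoxin (Glrx) was higher with compound D at 24 h (log2 1.15, SE 0.26, adjusted p = 0.0232) and lower in 24 h GLT than in the 3 h control (log2 -1.07, SE 0.26, adjusted p = 0.0208). Selenoprotein P (Sepp1), a selenium carrier, was lower in 24 h GLT than in condition 1 (log2 difference -1.73), condition 2 (-1.36) and condition 3 (-1.61). In all, 2 of the 45 rose and 1 fell from 3 h to 24 h with compound D, beside 6.11% of all genes, and 2 rose and 2 fell from the 3 h control to 24 h GLT, beside 8.26%. These shares of the list lie near those of all genes.

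Several members also differed between preparations. Mitochondrial superoxide dismutase (Sod2) averaged 209, 140 and 681 CPM in preparations 1, 2 and 3, so preparation 3 was at 3.90 times the mean of the others. The corresponding ratios were 2.45 for Hmox1, 2.32 for Gpx2, 2.22 for Gsta3, 2.03 for Nqo1, 1.95 for Osgin1 and 1.79 for Txnrd1. Gpx3 went the other way, at 0.492. Sod2 passed in none of the comparisons. The library of preparation 2, condition 3, lay below the mean of the other libraries of its preparation, at 0.113 of it for Prdx1, 0.197 for Ftl, 0.296 for Gsta3, 0.337 for Sod1 and 0.398 for Fth1. The part of its reads with several alignments in these low values was not tested.

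**Figure D5:**
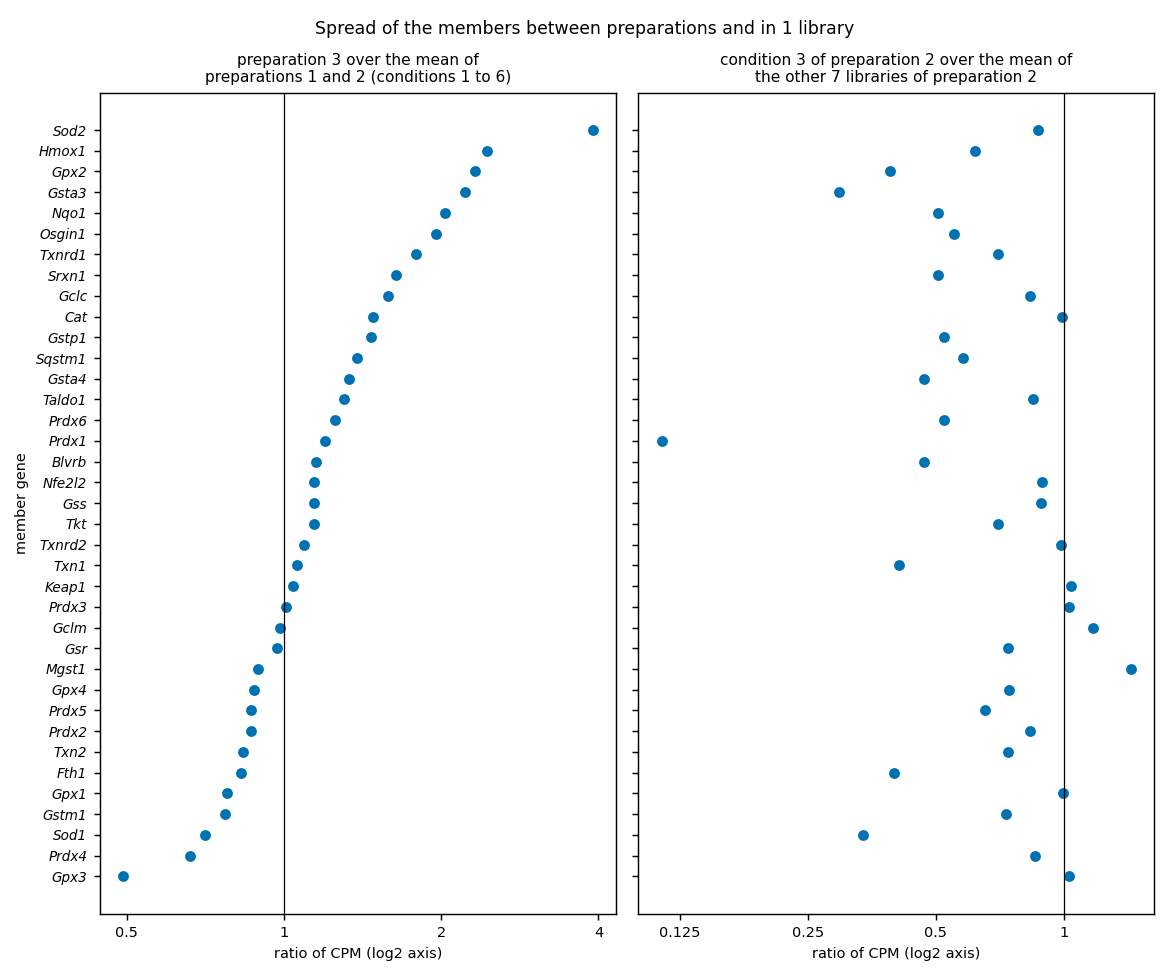
For each member, on the x axes, the ratio of its mean CPM in preparation 3 to that in preparations 1 and 2, and the ratio of the preparation 2, condition 3 library to the mean of the other libraries of preparation 2 (log axes, 1 point per gene). Sod2 lies highest in the first at 3.90 and Prdx1 lowest in the second at 0.113.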

How the data were processed

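Total RNA of 21 islet samples was sequenced (paired reads of 100 bp). Per the labels' protocols, the authors aligned reads to rn5 and counted them per gene with HTSeq; the submitters' processing notes name TopHat2 2.0.3 and Bowtie2 2.0.0. The deposited values are raw counts per gene. Strand setting and annotation are not given in the sources used here. Entries that name no gene (outside genes 10.3% to 18.7%, several alignments 4.92% to 23.4%, ambiguous 0.161% to 2.32% of a column) stayed out of library sizes and tests.

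The counts were tested with edgeR 4.0.16 (R 4.3.3): TMM scaling, filterByExpr, quasi-likelihood test, 2-sided, with a term per condition and preparation over all 21 libraries. A gene passed at Benjamini-Hochberg adjusted p below 0.05 over 12576 genes. CPM values were computed with TMM-adjusted library sizes. SE are derived from the F statistic. The script was tested on simulated data. No libraries of a group agreed within counting error.

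The preparation block follows from the design, in which each pool was divided over conditions. Residuals of a fit with conditions alone correlated by 0.222 on average within preparations (0.0776, 0.196 and 0.463) and by -0.164 between them. Subtracting condition means pushes pairs of the same condition below 0, and all such pairs lie between preparations. The negative value is therefore partly built in.

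Members and lists were chosen with earlier results of these data known. Named were 8 core genes (Nfe2l2, Keap1, Hmox1, Nqo1, Gclc, Gclm, Srxn1, Txnrd1) in the main comparisons, the members that passed (up to 12 by adjusted p) and, where fewer than 3 passed, the 3 with the smallest p. In 2 comparisons all 14 and all 13 that passed are named, and per-library values were chosen after seeing the data. DESeq2 1.42.0 was an alternative. The values of 1 gene of the further lists are not reported here.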

Additional observations from a re-analysis of the deposited data

How the results depend on the processing

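All 47 passing member results kept their direction in each of their 517 alternatives, and 336 of these passed; for genes of the 3 further lists, 779 of 779 kept direction and 516 passed. The alternatives without the preparation 2, condition 3 library, without the preparation 1 compound E library and with a term for ambiguous reads were chosen after seeing the data. With no replicate block the numbers of members that passed were 0 for compound D at 24 h, 5 for compound D over time, 2 for 24 h GLT against the 3 h control, and for conditions 4 against 3, 4 against 2, 2 against 1 and 6 against 3 they were 2, 3, 0 and 0. Leaving out libraries gave 0 to 3, 0 to 15 and 0 to 18 for the first 3 of these, 0 to 11, 0 to 13, 0 to 1 and 0 to 9 for the other 4, 0 to 14 for compound E against none and against compound D, and 0 to 1 for condition 3 against 1. Scaling by library size gave 1, 4, 7, 11, 0 and 3 for compound D at 24 h, compound D over time, 24 h GLT against the 3 h control and conditions 4 against 2, 2 against 1 and 6 against 3. DESeq2 gave 5 for compound D at 24 h, 1 at 3 h, and 12, 10, 1 and 14 for conditions 4 against 3, 4 against 2, 3 against 1 and 6 against 3. Fitting only the conditions compared gave 23 and 0 for conditions 4 against 2 and 6 against 3, and the term for ambiguous reads gave 11 for 4 against 3. The causes were not tested. Library size scaling moved the median of all genes to -0.36 for compound E against none, -0.39 against compound D, 0.24 for conditions 4 against 2, -0.29 for 2 against 1, 0.31 for 5 against 2 and 0.38 for the difference between the GLT effects. Members that changed sign passed in neither setting. For compound E against none, library size scaling gave Keap1 -0.077, Gclc -0.34, Gclm -0.23, Srxn1 -0.30 and Txnrd1 -0.28; no replicate block gave Nqo1 -0.038, Gclc -0.24, Srxn1 -0.17 and Txnrd1 -0.25; the compared conditions alone gave Gclc -0.014; and leaving out libraries gave Nqo1 -0.10 to 0.86, Srxn1 -0.13 to 0.34, Gclc -0.19 to 0.26 and Txnrd1 -0.18 to 0.31. Leaving out libraries also gave Nfe2l2 -0.16 to 0.017 and Txnrd1 -0.075 to 0.026 with compound D at 24 h, Nfe2l2 -0.11 to 0.016 and Gclc -0.216 to 0.033 with compound D over time, Osgin1 -0.64 to 0.22 between the compounds and Gclm -0.11 to 0.14 for conditions 4 against 3, where the compared conditions alone gave Gclm -0.001. The compound E results rest on 2 libraries. Low counts of Gsta3 limit its precision. They were 20 to 36 in condition 5, 20 to 63 in condition 3 and 25 to 135 in condition 4, the groups against which it passed. In conditions 1 and 2 they were 15 to 46.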
